A study of Sus scrofa with 16 samples.

Results

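The genes described here are the axon guidance ligands and receptors: the semaphorins with their plexin and neuropilin receptors, the ephrins and Eph receptors, the slits and robos, and the netrins and UNC5 receptors. They were taken by name from the count table, as every symbol that begins with SEMA, PLXN, EPHA, EPHB, EFNA, EFNB, SLIT1, SLIT2, SLIT3, ROBO, NTN or UNC5, plus NRP1 and NRP2. This gave 72 of 29552 named genes. The prefix also takes in UNC50, a Golgi protein, and UNC5CL, a death-domain protein, neither of which is a netrin receptor. Of the 72 genes, 2 had no read (EPHA8 and UNC5D), 11 had too few reads to pass the filter on low counts, and 59 were tested.

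The samples were valve interstitial cells, the fibroblasts of the aortic valve leaflet, isolated from pigs of 5 to 6 months and cultured. Cells of 4 male and 4 female biological replicates were held for 48 hours in medium with 1% serum, either on a soft PEG-norbornene hydrogel of about 5.8 kPa or on stiff tissue culture plastic. Each sex on each surface made a group of n = 4 libraries. The labels take cells on gel for quiescent fibroblasts and cells on plastic for myofibroblasts, and the medium of all 4 groups also held penicillin, streptomycin and amphotericin B. Nothing in the labels says whether a replicate is 1 animal or a pool, and leaflets that were not cultured are not among the groups.

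Guidance cues were named for steering growing axons, but connective tissue and vessels use them too. Class 3 semaphorins are secreted and act through a neuropilin, which binds the ligand, joined to a plexin, whose cytoplasmic part acts on small GTPases and the actin skeleton. Classes 4 to 7 are bound to membranes and mostly bind plexins directly. Ephrins sit on the cell surface and signal both into the cell with the Eph receptor and back into their own cell. Slits are secreted ligands of robo receptors, and netrins are laminin-like ligands of DCC, neogenin and UNC5 receptors.

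Library totals ran from 16.9 M reads in male gel 2 to 27.44 M, and levels are given in CPM, the usual read count relative to the library total, here scaled by TMM factors. All 12 markers of valve interstitial cells and fibroblasts were above the filter, with VIM at 4829 to 8174 CPM and COL1A2 at 12090 to 17100 CPM in all 16 libraries. These markers moved with the surface: 3 rose and 5 fell on plastic in male cells, and 1 rose and 6 fell in female cells. PDGFRA fell by most (-2.44 and -2.39). Over all tested genes, 12.9% rose and 12.9% fell in male cells, and 12.7% and 11.3% in female cells. The part of these 12 markers in the members' changes was not tested. Epithelial markers summed to at most 0.452 CPM in any library. Of 10 leukocyte genes 7 were below the filter, at 0.314 CPM or less with CD163 and CD3E at 0, while CD14 (3.16 to 11.3 CPM) fell on plastic and LAPTM5 (0.565 to 33.7 CPM) rose in both sexes, and the list summed to 5.7 to 38.1 CPM. Of 8 genes of glia and neural crest 5 were below the filter, at 0.673 CPM or less with CDH19 at 0, and in both sexes NGFR rose and ERBB3 and S100B fell, none above 6.74 CPM. Of 4 tested neuronal genes RBFOX3 rose in both sexes (at most 2.75 CPM), and STMN2, not called, reached 18.3 CPM. NGFR (0.141 and 0.268 CPM on male and female gel) and RBFOX3 (0.105 and 0.172 CPM) could pass the filter only through plastic. Markers of endothelial cells, which line the leaflet, were present: their 18 genes summed to 181 to 387 CPM in male gel, 234 to 438 in male plastic, 202 to 384 in female gel and 246 to 699 in female plastic. In these bulk samples, fewer cells of a type and less RNA per cell cannot be told apart.

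In the comparison of plastic with gel, 19 of the 59 tested genes differed between the surfaces in male cells (12 rose and 7 fell on plastic) and 18 in female cells (9 rose and 9 fell). The call was an adjusted p under 0.05 in edgeR's quasi-likelihood test over all 14530 tested genes, of which 25.8% were called in male cells (12.9% higher, 12.9% lower) and 23.9% in female cells (12.7% higher, 11.3% lower). The members' shares were 32.2% and 30.5%. In both sexes and the same direction, 14 genes were called, 23.7% against 16.5% of all tested genes. The 8 that rose in both sexes (9.24% of all tested genes did) were SEMA3B, SEMA3D, SEMA4F, NRP2, PLXNA3, SLIT2, SLIT3 and ROBO4. The 6 that fell in both (7.27% of all tested genes did) were SEMA3A, SEMA3G, SEMA6D, EFNA1, EFNA4 and EFNB1. Of these 14, ROBO4 and EFNA4 had so few reads in the lower group that they could pass the filter only through the group where they were high, so the counts describe the genes tested and not all 72.

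The median log2 change of the 59 genes was 0.17 in male and -0.10 in female cells, beside -0.03 and -0.04 over all tested genes. The median absolute change was 0.57 and 0.445, beside 0.31 and 0.29 over all tested genes. CPM of the gel and plastic libraries did not overlap for 20 genes in male cells, where 28.9% of all tested genes did not, and for 17 in female cells, where 27.7% did not. Male gel 2 was the lowest library of its group for 23, and female plastic 4 for 16, of the 36 tested genes with at least 5 CPM in a group. Without both of these libraries, a setting chosen after seeing the data, 19 genes were called in each sex (17 and 18 of them also called over all libraries), where 28.6% and 29.3% of all genes tested in that setting were called. Likewise, without both libraries of male 4, female 1 and female 4, which had the highest endothelial sums, 19 were called in male (17 of them also called over all libraries) and 12 in female cells, where 21.4% and 13.4% of all genes tested in that setting were called. The calls that this setting ended were those of EFNA4 (adjusted p = 0.0766) and EPHA1 (0.107) in male cells. In female cells they were those of EFNA4 (0.204), PLXNA3 (0.0933), PLXNB1 (0.335), ROBO4 (0.0596), SEMA3F (0.316) and SEMA4B (0.596). In both of these settings the male count of 19 includes ROBO2, which was below the filter over all libraries and is not among the 59.

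**Figure D1:**
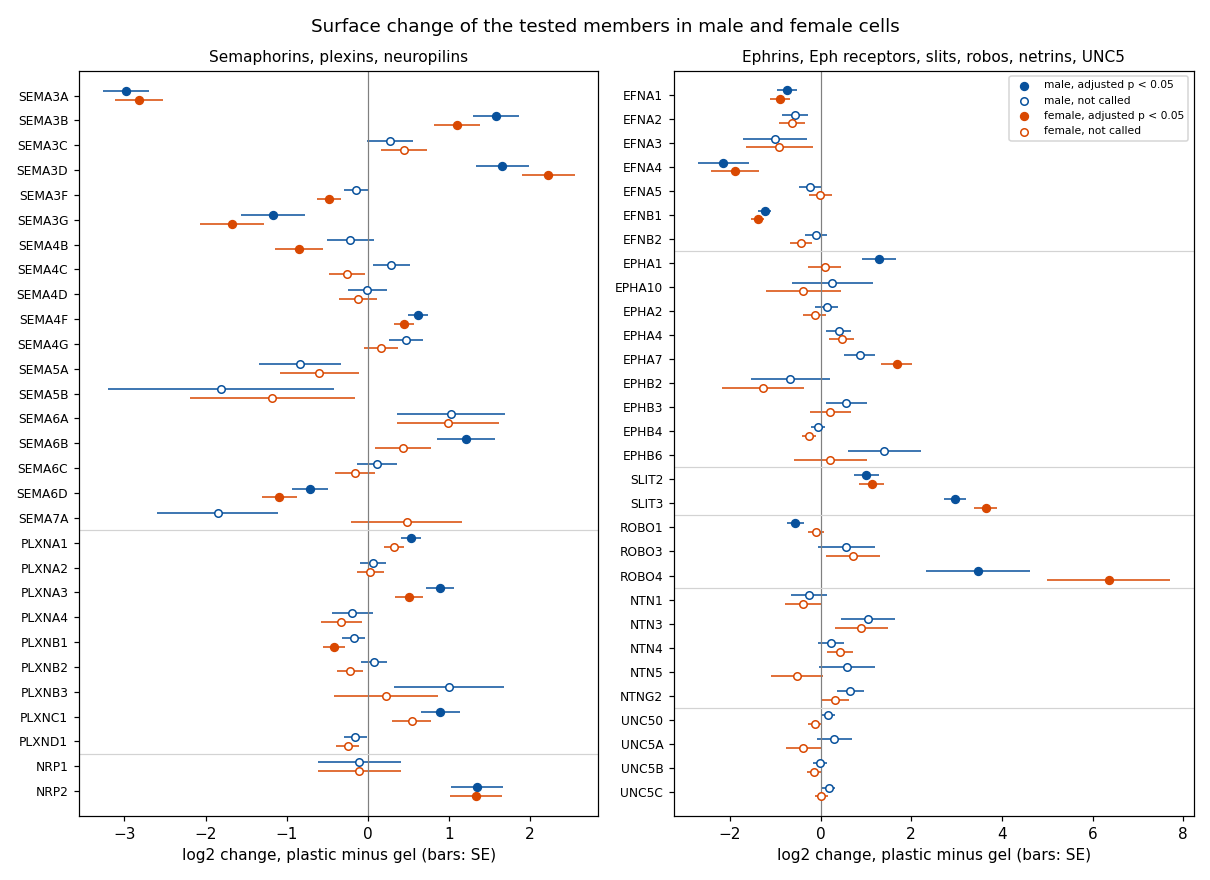
Log2 change from gel to plastic (x axis) of each of the 59 tested genes, in male (blue) and female (orange) cells, with bars for the SE; filled points passed an adjusted p of 0.05. SEMA3A lies farthest to the left among semaphorins, at -2.98 and -2.82, and SLIT3 and ROBO4 lie farthest to the right.

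Among the secreted class 3 semaphorins, SEMA3A fell on plastic while SEMA3B and SEMA3D rose. SEMA3A (chromosome 9, 95934937 to 96387950 on Sscrofa11.1) is the classic repellent that acts through NRP1 and class A plexins. In male cells it was at 16.4, 30.7, 15.5 and 15.5 CPM in gel replicates 1 to 4 and at 2.37, 2.14, 2.57 and 2.75 CPM on plastic. In female cells it was at 11.101, 10.1, 13.5 and 12.8 CPM on gel and 1.95, 1.22, 0.88 and 2.62 CPM on plastic. Every plastic library lay below every gel library of its sex, and male gel 2 stood above the other male gel libraries. The log2 change was -2.98 (SE 0.29, adjusted p = 2.09e-06) in male and -2.82 (SE 0.29, adjusted p = 4.3e-06) in female cells.

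SEMA3D (chromosome 9, 95280637 to 95486109), a secreted cue of heart and vessel development, moved the other way. Male gel replicates 1 to 4 had 45.4, 67.4, 37.4 and 20.5 CPM and male plastic replicates 149, 132, 130 and 129 CPM. Female gel replicates had 27.9, 41.1, 42.9 and 17 CPM, and female plastic replicates 88.6, 167, 174 and 174 CPM. The groups did not overlap in either sex, and female plastic 1 was the lowest on female plastic. The change was 1.66 (SE 0.32, adjusted p = 0.00113) in male and 2.23 (SE 0.33, adjusted p = 0.000115) in female cells.

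SEMA3B (chromosome 13, 32737100 to 32749633), a ligand of both neuropilins, also rose. It was at 13.4, 5.08, 13.1 and 8.44 CPM on male gel and 34.0, 30.5, 31.4 and 25 CPM on male plastic. Female gel had 8.97, 16.1, 13.5 and 10.3 CPM and female plastic 17.5, 36.7, 30.1 and 20.7 CPM. Female plastic 1 and 4 lay closest to the gel libraries, without reaching them. The change was 1.58 (SE 0.28, adjusted p = 0.000629) in male and 1.10 (SE 0.28, adjusted p = 0.00867) in female cells.

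The other class 3 genes moved less or were low. SEMA3G, a cue for NRP2, fell from 3.03 ± 0.93 to 1.35 ± 0.46 CPM (mean ± SD, n = 4) in male cells (-1.17, SE 0.39, adjusted p = 0.0378) and from 4.13 ± 1.84 to 1.29 ± 0.635 CPM in female cells (-1.67, SE 0.39, adjusted p = 0.00507). Leaving out male gel 1, 2 or 3, or male plastic 1, 3 or 4, ended the male call (adjusted p 0.0579 to 0.109), as did limma-voom (0.0553). SEMA3F, the best known ligand of NRP2, fell in female cells, from 39.3 ± 1.34 to 28.1 ± 2.0 CPM (-0.48, SE 0.15, adjusted p = 0.0259), a call lost without female gel 1 or 2 or female plastic 3 or 4 (adjusted p 0.0548 to 0.0693). Male SEMA3F was at 34.0 ± 8.6 and 30.7 ± 3.85 CPM (-0.15, adjusted p = 0.497). SEMA3C, a cue of the cardiac outflow tract, was not called (0.27 in male, 0.45 in female cells), though with the replicate as a block the female change of 0.46 was (adjusted p = 0.02).

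Of these genes, SEMA3D, SEMA3A and SEMA3E follow each other on chromosome 9. No protein-coding gene is annotated in the 449 kb between SEMA3D and SEMA3A or in the 294 kb between SEMA3A and SEMA3E. So the neighbours SEMA3D and SEMA3A changed in opposite directions, and SEMA3E had 34 reads in all libraries together and was below the filter. SEMA3F and SEMA3B are 65.9 kb apart on chromosome 13, with 3 protein-coding genes annotated between them. SEMA3B rose in both sexes while SEMA3F did not rise in either.

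Among membrane-bound semaphorins, SEMA6D (chromosome 1), a ligand of PLXNA1, fell on plastic. Male gel had 9.15, 9.04, 12 and 6.73 CPM and male plastic 6.24, 5.86, 5.55 and 4.94 CPM. Female gel had 16.2, 7.83, 10.8 and 8.66 CPM and female plastic 5.68, 5.24, 4.31 and 5.23 CPM. Both pairs of groups were apart, by a small margin in male cells. The change was -0.71 (SE 0.22, adjusted p = 0.0238) in male and -1.09 (SE 0.22, adjusted p = 0.00153) in female cells, and the male call was lost without male gel 3 or male plastic 3 or 4 (adjusted p 0.0565 to 0.082).

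SEMA4F rose from 24 ± 2.97 to 36.9 ± 3.0 CPM in male cells (0.62, SE 0.12, adjusted p = 0.00145) and from 24.3 ± 0.99 to 33.2 ± 5.63 CPM in female cells (0.45, SE 0.12, adjusted p = 0.0142). Without female plastic 2 the female adjusted p was 0.0547. SEMA6B rose in male cells, from 2.74 ± 1.35 to 6.38 ± 1.47 CPM (1.21, SE 0.36, adjusted p = 0.0213), and had 5.68 ± 2.37 and 7.68 ± 2.83 CPM in female cells (0.44, adjusted p = 0.403). Leaving out male gel 2 or 3, or male plastic 2, ended the male call (adjusted p 0.0541 to 0.0582). SEMA4B, at 33.5 ± 9.98 on gel and 18.6 ± 4.42 CPM on plastic in female cells, passed narrowly (-0.85, SE 0.29, adjusted p = 0.0465).

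The SEMA4B call was lost without any 1 of 12 libraries (all but male gel 2 and 4 and female gel 2 and 3), with an adjusted p between 0.0514 (male plastic 1 absent) and 0.145 (female gel 4 absent). It was lost with the replicate as a block (0.0522) and with the RLE size factors of DESeq2 (0.0525). Without both libraries of male 4, female 1 and female 4 the change was -0.30. In male cells SEMA4B was at 24.6 ± 11.9 and 21.3 ± 3.35 CPM (-0.21, adjusted p = 0.641). SEMA4C, SEMA4D, SEMA4G, SEMA5A, SEMA5B, SEMA6A and SEMA6C were not called in either sex. SEMA4D, the ligand of PLXNB1 best known from immune cells and bone, was at 4.41 ± 0.98 and 4.41 ± 0.72 CPM in male and 4.40 ± 1.13 and 4.06 ± 1.2 CPM in female cells.

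Of the neuropilins, NRP2 rose on plastic and NRP1 was not called. NRP2 (chromosome 15), the co-receptor of SEMA3F and SEMA3G and of VEGFC, was at 104, 75.8, 78.7 and 50.0 CPM on male gel and 215, 191, 237 and 147 CPM on male plastic. Female gel had 41.5, 98.1, 119 and 47.3 CPM and female plastic 125, 215, 267 and 166 CPM. All plastic libraries lay above all gel libraries of their sex, and each replicate was higher on plastic. The change was 1.35 (SE 0.32, adjusted p = 0.00521) in male and 1.34 (SE 0.32, adjusted p = 0.00572) in female cells. NRP1 (chromosome 10), the co-receptor of SEMA3A and of VEGFA, had a change of -0.10 (SE 0.51) in each sex.

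The 9 plexins were all tested. On plastic 3 rose in male cells, and 1 rose and 1 fell in female cells. Over all tested genes, 25.8% were called in male and 23.9% in female cells. PLXNA3 (chromosome X, 124982307 to 124997098), a receptor subunit for class 3 semaphorins, was at 60.1, 27.8, 48.0 and 52.1 CPM on male gel and 82.6, 90.9, 86.6 and 89.1 CPM on male plastic. In female cells it had 58.8, 55.7, 56.3 and 54.5 CPM on gel and 74.0, 94.2, 91.4 and 61.9 CPM on plastic. Plastic lay above gel in both sexes, with female plastic 4 near the gel values. The change was 0.89 (SE 0.18, adjusted p = 0.00138) in male and 0.51 (SE 0.18, adjusted p = 0.0431) in female cells.

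The female PLXNA3 call was lost without any 1 female gel library, without female plastic 2 or 3, without male gel 3 or without any 1 male plastic library, at adjusted p from 0.0536 to 0.127. It was also lost by limma-voom (0.0504) and with no filter on low counts (0.0566). PLXNA1, which pairs with neuropilins and also binds SEMA6D, was at 196, 127, 184 and 197 CPM on male gel and 268, 239, 255 and 255 CPM on male plastic (0.53, SE 0.12, adjusted p = 0.00478), with no overlap. On female gel it had 177, 186, 178 and 209 CPM and on female plastic 231, 255, 250 and 203 CPM, where plastic 4 fell among the gel values (0.32, SE 0.12, adjusted p = 0.0685). The female change passed without female plastic 4 (0.39, adjusted p = 0.0436) and without male gel 2 (0.32, adjusted p = 0.00791).

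PLXNB1, the receptor of SEMA4D, had 67.6, 40.8, 65.1 and 66.7 CPM on male gel and 46.3, 56.7, 56.2 and 53.8 CPM on male plastic (-0.17, SE 0.14, adjusted p = 0.391). Female gel had 57.9, 68.1, 69.6 and 67.6 CPM and female plastic 50.0, 51.9, 54.2 and 41.2 CPM (-0.42, SE 0.14, adjusted p = 0.0405). The female groups did not overlap. That call was lost without female gel 2, 3 or 4, female plastic 1, 2 or 4, or male plastic 2, 3 or 4 (adjusted p 0.0514 to 0.12), and the male change passed without male gel 2 (-0.32, adjusted p = 0.0296). The female call was also lost with the RLE size factors of DESeq2 (0.0515) and with no filter on low counts (0.0521). PLXNC1, a receptor of SEMA7A, rose in male cells from 1.79 ± 0.51 to 3.35 ± 0.50 CPM (0.90, SE 0.24, adjusted p = 0.0119) and had 1.77 ± 0.31 and 2.59 ± 0.53 CPM in female cells (0.54, adjusted p = 0.117).

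PLXNA2, PLXNA4, PLXNB2, PLXNB3 and PLXND1 were not called in either sex. PLXNB2 had 461 ± 130 and 488 ± 24.1 CPM in male cells (0.08, SE 0.16) and 529 ± 33.2 and 455 ± 48.4 CPM in female cells (-0.22, SE 0.16, adjusted p = 0.367), where every plastic library lay below every gel library. PLXND1, the receptor of SEMA3E, had 140 ± 30.6 and 126 ± 12.1 CPM in male cells (-0.15, SE 0.14) and 155 ± 18.8 and 131 ± 12.4 CPM in female cells (-0.25, SE 0.14). With the replicate as a block the female change of PLXNA4 passed (-0.36, adjusted p = 0.033). Male gel 2, the shallowest library, was the lowest of the male gel libraries for 8 of the 9 plexins.

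**Figure D2:**
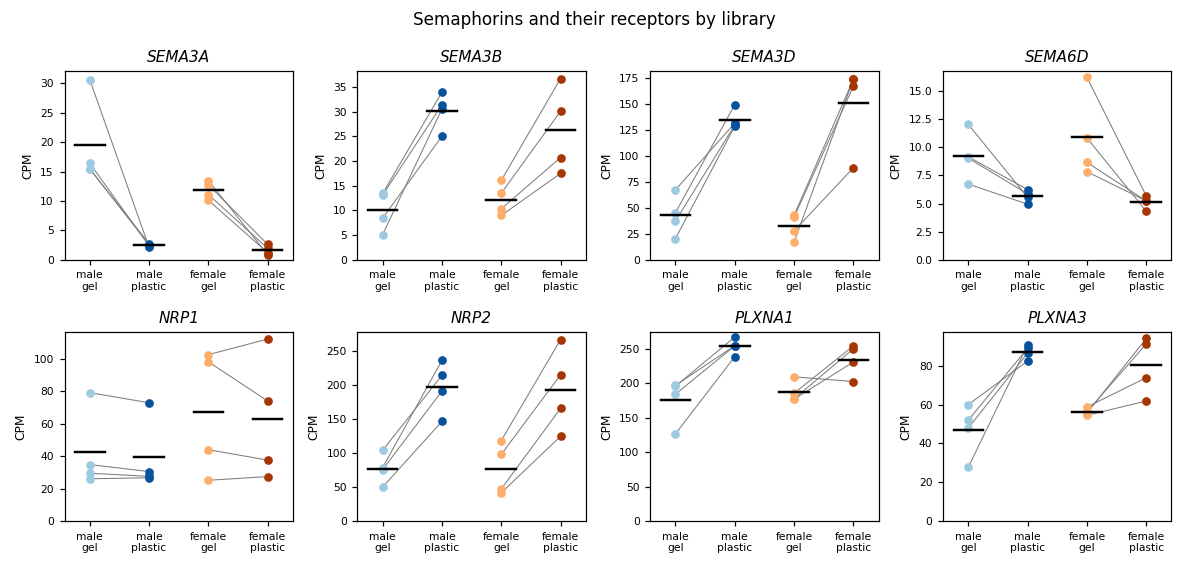
CPM (y axis) of 4 semaphorins, both neuropilins and 2 class A plexins in all 16 libraries; points are libraries, grey lines join the same replicate number on gel and plastic, and black bars are group means (n = 4). SEMA3A drops to 2.75 CPM or less in every plastic library, NRP2 rises in all 8 replicates, and NRP1 differs between replicates more than between surfaces.

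Of 7 tested ephrins, 3 fell on plastic in both sexes (7.27% of all tested genes did) and none rose. EFNB1 (chromosome X), a transmembrane ligand of EphB receptors that also signals back into its own cell, was at 42.1, 33.2, 41.5 and 49.8 CPM on male gel and 17.5, 19.6, 17.2 and 16.6 CPM on male plastic. Female gel had 39.0, 43.2, 36.6 and 50.9 CPM and female plastic 15.8, 18.8, 16.9 and 13.3 CPM. The surfaces were far apart in both sexes and the sexes overlapped on each surface. The change was -1.23 (SE 0.14, adjusted p = 9.4e-06) in male and -1.39 (SE 0.14, adjusted p = 3.28e-06) in female cells.

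EFNA1, a membrane-anchored ligand of EphA receptors, was at 5.02, 3.90, 6.11 and 5.03 CPM on male gel and 2.71, 2.67, 3.46 and 3.13 CPM on male plastic. Female gel had 4.76, 7.64, 6.96 and 4.57 CPM and female plastic 4.22, 2.90, 2.51 and 3.21 CPM. Plastic lay below gel in both sexes, with female plastic 1 just under the lowest gel library. The change was -0.75 (SE 0.22, adjusted p = 0.0196) in male and -0.90 (SE 0.22, adjusted p = 0.0064) in female cells, and the male call was lost without male gel 3 or male plastic 1 or 2 (adjusted p 0.055 to 0.0615).

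EFNA4 was low on gel and lower on plastic, with 79 against 17 reads over the male libraries and 110 against 24 over the female ones (-2.14, SE 0.57, adjusted p = 0.0108, and -1.89, SE 0.54, adjusted p = 0.0173). At this level it could pass the filter only through the groups where it was high. Its female call was lost without female plastic 3 (adjusted p = 0.0554), and both calls were lost without the libraries of male 4, female 1 and female 4 (0.0766 in male, 0.204 in female cells). EFNA1, EFNA3 and EFNA4 lie side by side on chromosome 4 (94666457 to 94673442, 94709941 to 94719350 and 94730790 to 94735578), with no protein-coding gene annotated between them. EFNA3 also had negative changes (-1.0, SE 0.71, and -0.91, SE 0.73) but was not called at 0.506 CPM or less. EFNA2, EFNA5 and EFNB2, the ephrin of arterial endothelium, were not called.

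Of 9 tested Eph receptors, 1 was called in male cells and another in female cells, beside 25.8% and 23.9% of all tested genes. EPHA4, which binds ephrins of both classes, had 158, 125, 116 and 127 CPM on male gel and 234, 150, 164 and 145 CPM on male plastic. Female gel had 75.2, 143, 183 and 91.2 CPM and female plastic 102, 202, 244 and 133 CPM, so the groups overlapped while each of the 8 replicates was higher on plastic. It was not called (0.40, adjusted p = 0.314, and 0.47, adjusted p = 0.251), but it was with the replicate as a block (0.38, adjusted p = 0.00679, and 0.47, adjusted p = 0.00188). EPHB4, the receptor of EFNB2, had 44.6 ± 6.28 and 42.9 ± 5.31 CPM in male and 47.9 ± 3.5 and 40.1 ± 8.74 CPM in female cells.

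EPHA2, the main receptor of EFNA1, had 22.5 ± 5.24 and 24.7 ± 1.61 CPM in male cells (0.13, SE 0.25) and 31.7 ± 7.95 and 29.0 ± 13.6 CPM in female cells (-0.13, SE 0.25). EPHB3 changed by 0.57 (SE 0.45) and 0.22 (SE 0.45), not called. The called receptors were both low. EPHA1 rose in male cells from 0.367 ± 0.143 to 0.923 ± 0.18 CPM (1.29, SE 0.38, adjusted p = 0.021), a call lost without male gel 4 (0.0567) or male plastic 4 (0.0638), and EPHA7 rose in female cells from 0.547 ± 0.21 to 1.77 ± 0.539 CPM (1.68, SE 0.34, adjusted p = 0.00171). With the block, EPHB6 passed in male cells (1.47, adjusted p = 0.04) and EPHB2 in female cells (-1.41, adjusted p = 0.0146).

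Both tested slits rose on plastic in both sexes (9.24% of all tested genes did), and SLIT1 was below the filter. SLIT3 (chromosome 16) was at 3.65, 2.6, 2.76 and 5.34 CPM on male gel and 27.6, 29.4, 24.4 and 30.4 CPM on male plastic. Female gel had 1.80, 2.48, 2.34 and 3.12 CPM and female plastic 20.4, 40.1, 31.9 and 29.2 CPM. Every plastic library was above every gel library by a wide margin. The change was 2.96 (SE 0.24, adjusted p = 3.59e-07) in male and 3.64 (SE 0.25, adjusted p = 5.61e-08) in female cells, the smallest adjusted p among the 59 genes in each sex.

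SLIT2 (chromosome 8), the most studied slit, was at 43.1, 76.1, 78.8 and 38.6 CPM on male gel and 106, 121, 155 and 95.4 CPM on male plastic. Female gel had 74.6, 64.4, 69.1 and 37.9 CPM and female plastic 87.6, 166, 157 and 125 CPM. The groups did not overlap, and female replicate 1 had the smallest step. The change was 1.01 (SE 0.27, adjusted p = 0.0104) in male and 1.12 (SE 0.27, adjusted p = 0.00548) in female cells.

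Their receptor ROBO1 (chromosome 13) did not rise. It was at 318, 399, 256 and 202 CPM on male gel and 218, 231, 193 and 157 CPM on male plastic, with overlap (-0.56, SE 0.18, adjusted p = 0.0357). Female gel had 188, 291, 236 and 221 CPM and female plastic 203, 241, 194 and 235 CPM (-0.10, SE 0.18, adjusted p = 0.73). Leaving out male gel 1 or 2, or male plastic 1, 3 or 4, ended the male call (adjusted p 0.0524 to 0.126), and without male gel 2 the change was -0.37. A fit of the male libraries alone also ended that call (adjusted p = 0.084). ROBO3, at 0.292 to 0.551 CPM in the group means, was not called.

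ROBO4, the robo of endothelial cells, rose in both sexes from near 0. Male gel had 0.21, 0, 0.224 and 0.135 CPM and male plastic 0.387, 0.744, 4.04 and 1.82 CPM. Female gel had 0.036, 0.118, 0 and 0 CPM and female plastic 10.7, 1.54, 1.28 and 0.0844 CPM, with overlap through plastic 4. The fitted changes of 3.48 (SE 1.14, adjusted p = 0.0342) and 6.35 (SE 1.35, adjusted p = 0.00255) rest on 15 and 4 reads on gel and 159 and 306 reads on plastic, and the gene could pass the filter only through plastic. The male call was lost without any 1 male gel library or without male plastic 3 or 4 (adjusted p 0.0576 to 0.125), and both calls were lost by limma-voom (0.188 and 0.0639). In each sex ROBO4 could be tested in only 24 of the 25 alternative settings.

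Female plastic 1, the highest library for ROBO4, also had the highest endothelial sum, 699 CPM. Of the 18 endothelial markers, 2 were called higher on plastic in male and 3 in female cells and 0 lower. Of all tested genes, 12.9% and 12.7% were called higher, and 12.9% and 11.3% lower. The markers called were SOX18 and LYVE1 in both sexes and ERG in female cells. SOX18 passed narrowly in male cells (adjusted p = 0.0499) and reached at most 4.44 CPM. LYVE1 reached at most 1.69 CPM. At 0.0224 and 0.0255 CPM on male and female gel, it could pass the filter only through plastic. Levels over the libraries ran from 4.97 to 173.6 CPM for CDH5, 21.5 to 124.2 for PECAM1 and 92.8 to 251.9 for ERG, and were at most 4.17 for VWF and 2.22 for KDR. Their part in the rise of ROBO4 was not tested. ROBO3 and ROBO4 lie 1.99 kb apart on chromosome 9.

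**Figure D3:**
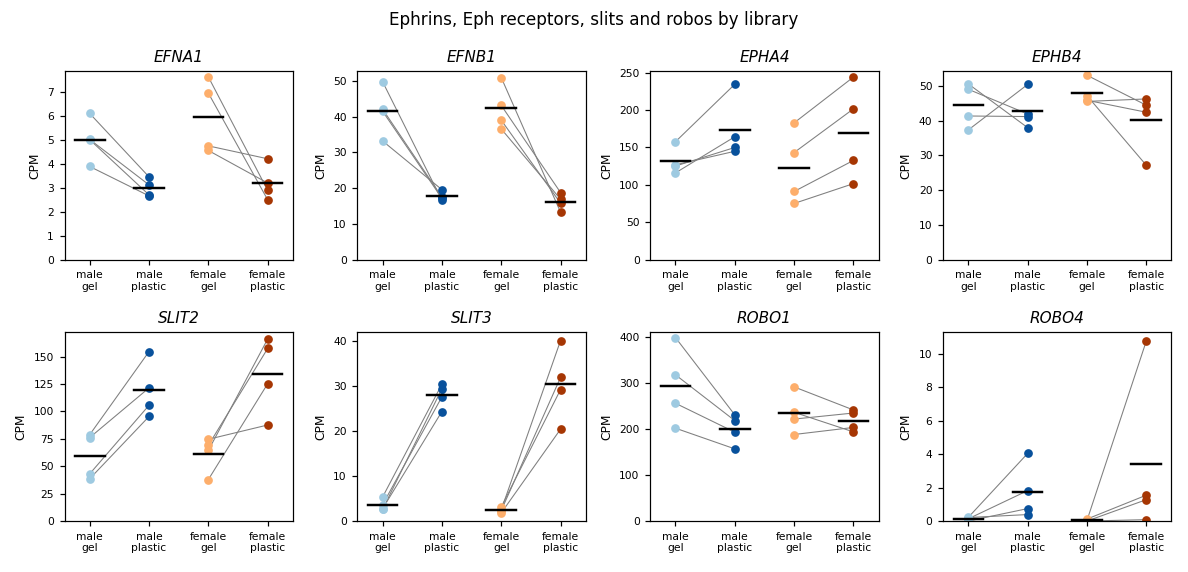
CPM (y axis) of 2 ephrins, 2 Eph receptors, 2 slits and 2 robos in all 16 libraries, drawn as in the plot of semaphorins (points are libraries, grey lines join replicate numbers, black bars are group means, n = 4). EFNB1 falls and SLIT3 rises in all 8 replicates, while ROBO4 on female plastic is carried by replicate 1 at 10.7 CPM.

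None of the 5 tested netrins or 4 tested genes with the UNC5 prefix was called in either sex. Of all tested genes, 25.8% were called in male and 23.9% in female cells. NTN1, the founding netrin, had 46.5 ± 31.7 and 39.2 ± 20.2 CPM in male cells (-0.25, SE 0.40) and 54.0 ± 17.5 and 41.5 ± 4.66 CPM in female cells (-0.38, SE 0.40). NTN4, a netrin of basement membranes, had 79.6 ± 14.8 and 93.9 ± 29.5 CPM in male cells (0.24, SE 0.29) and 93.9 ± 28.6 and 127 ± 54.8 CPM in female cells (0.43, SE 0.29). NTNG2, a membrane-anchored netrin-G, had changes of 0.65 (SE 0.30, adjusted p = 0.119) and 0.33 (SE 0.29). The male change of NTNG2 passed without the libraries of male 4, female 1 and female 4 (0.86, adjusted p = 0.0326), and NTN3 and NTN5 were at 0.68 CPM or less in each group mean.

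Among the receptors, UNC5B, the vascular netrin receptor that also binds ROBO4, changed by -0.02 (SE 0.15) in male and -0.14 (SE 0.15) in female cells, from 109 ± 24 to 108 ± 10.6 and from 129 ± 9.13 to 117 ± 22 CPM. UNC5C changed by 0.18 (SE 0.15) and 0.02 (SE 0.15), at 31.0 to 39.4 CPM in the group means, and UNC5A by 0.31 (SE 0.39) and -0.38 (SE 0.39), at 1.63 to 2.24 CPM. UNC50, in the group by its prefix, changed by 0.17 (SE 0.16) and -0.12 (SE 0.16).

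The 11 genes below the filter were EPHA3, EPHA5, EPHA6, EPHB1, EFNB3, NTNG1, ROBO2, SEMA3E, SEMA4A, SLIT1 and UNC5CL, with 2 to 95 reads each over all libraries. ROBO2, the other main slit receptor, had 38 reads on male gel and 4 on male plastic, and 34 on female gel and 3 on female plastic. Fitted with no filter, its changes were -2.93 (SE 1.03, adjusted p = 0.0636) and -3.01 (SE 1.07, adjusted p = 0.07). The other 10 had adjusted p of at least 0.134 in that fit. With some libraries left out, the filter kept ROBO2. Its male change was then called without male gel 1, 2 or 4, female gel 2, or female plastic 1, 3 or 4 (adjusted p 0.0205 to 0.0487), and its female change without male gel 2 or 4 (0.0399 and 0.0366). EPHA3 was called in female cells without female plastic 1 (-2.53, adjusted p = 0.043). ROBO2 was also called in male cells in both settings that leave out several libraries (0.0293 and 0.0475).

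A list of 88 signalling partners of these ligands and receptors, none of them among the 72 genes, had 78 tested members. On plastic 30 of them were higher and 9 lower in male cells, and 31 and 8 in female cells, with median changes of 0.26 and 0.28. The shares that rose were 38.5% and 39.7%, beside 12.9% and 12.7% of all tested genes, and the shares that fell were 11.5% and 10.3%, beside 12.9% and 11.3%. The rises with the smallest adjusted p in male cells were those of MICAL2, MICAL3, VASP and TRIO. MICAL2 and MICAL3 belong to a family of oxidases that act on actin. VASP is a filament elongator, and TRIO is an exchange factor used by netrin receptors. MICAL2 went from 232 to 552 CPM in male cells (1.25, SE 0.12) and from 243 to 519 in female cells (1.10, SE 0.12). MICAL3 changed by 1.32 (SE 0.13) and 1.19 (SE 0.13), VASP by 1.20 (SE 0.16) and 0.97 (SE 0.16), and TRIO by 0.63 (SE 0.08) and 0.57 (SE 0.08).

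The deepest fall in that list was that of RND1, a small GTPase that binds the cytoplasmic part of plexins. It went from 19.1 to 0.668 CPM in male cells (-4.82, SE 0.27) and from 20.6 to 0.66 CPM in female cells (-4.96, SE 0.27). ADAM17, a sheddase of surface proteins, changed by -0.85 (SE 0.11) and -0.66 (SE 0.11), the kinase FYN, which acts below plexins and Eph receptors, by -0.64 (SE 0.10) and -0.65 (SE 0.10), and the UNC5 ligand FLRT3 by -1.55 (SE 0.29) and -0.95 (SE 0.29). Markers of pericytes and smooth muscle moved with the surface, with 6 of 7 tested genes higher and 1 lower on plastic in each sex. Of all tested genes, 12.9% were higher and 12.9% lower in male cells, and 12.7% and 11.3% in female cells. The markers summed to 399 to 562 CPM on male gel against 1923 to 2482 on male plastic. DES was near 0 on gel, at 0.231 and 0.298 CPM in male and female cells against 103 and 90.3 CPM on plastic. The pericyte gene RGS5 was at 0.145 CPM or less in every library. The part of these markers in the members' changes was not tested.

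Female and male cells were then compared on each surface. None of the 59 genes was called on gel, where 0.103% of all tested genes were, or on plastic, where 0.124% were, by edgeR or in any other setting run, DESeq2 and limma-voom included. Beside 560 of all 14530 tested genes on gel and 284 on plastic, 3 of the 59 were at an unadjusted p under 0.05 on each surface. On gel they were SEMA6B (female minus male 1.05, SE 0.36), SEMA3A (-0.71, SE 0.26) and SLIT3 (-0.56, SE 0.24), each at adjusted p = 0.852. On plastic they were SEMA7A (1.96, SE 0.75), EPHA7 (0.78, SE 0.33) and UNC5C (-0.33, SE 0.15), each at adjusted p = 0.98.

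CPM of the sexes did not overlap for 1 gene on gel, SEMA3A, where 2.03% of all tested genes did not, and for 2 on plastic, SEMA4G and SEMA7A, where 2.85% did not. By edgeR, DESeq2 and limma-voom, the surface change differed between the sexes for 0 genes of the whole table (0%) and 0 of the 59. At an unadjusted p under 0.05 by edgeR there were 2 of the 59, beside 633 of all 14530 tested genes. Among the 59, the smallest p belonged to SEMA7A (female minus male change 2.33, SE 1.01, adjusted p = 0.767), EPHA1 (-1.20, SE 0.53) and SLIT3 (0.68, SE 0.33). So a gene called in 1 sex, such as PLXNA1, ROBO1 or SEMA4B, was not shown to change differently in the other.

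SEMA7A, a lipid-anchored semaphorin that binds integrins and PLXNC1, was at 1.61, 2.09, 1.34 and 5.21 CPM on male gel and 0.145, 0.70, 1.02 and 0.93 CPM on male plastic. The male change of -1.85 (SE 0.75, adjusted p = 0.0794) passed with the replicate as a block (-1.81, adjusted p = 0.0237), by DESeq2 (0.0299) and without female plastic 1 (0.0266). Female gel had 2.6, 1.06, 0.849 and 3.41 CPM and female plastic 7.73, 1.12, 1.06 and 1.14 CPM, so female plastic 1 alone stood above the gel range.

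Several members differed widely between the replicates, NRP1 more than between the surfaces. NRP1 was at 79.0, 102 and 98.0 CPM on gel and 72.8, 112 and 73.9 CPM on plastic in male 4, female 1 and female 4. In the other 5 replicates it was at 25.1 to 43.9 CPM on both surfaces. The SD of the replicates' mean log2 CPM was 0.83 for NRP1, against 0.14 within a replicate across surfaces, after removal of the group means. That removal takes out the mean surface change, -0.10 in each sex for NRP1, so the SD within a replicate does not measure it. Over the 59 genes the medians of these SDs were 0.355 between and 0.309 within replicates, and over all tested genes 0.197 and 0.233.

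EPHB2, a receptor of B ephrins, ran the other way, with 1.26, 0.577 and 1.3 CPM on gel and 0.465, 0.266 and 0.127 CPM on plastic in male 4, female 1 and female 4, and 1.91 to 8.23 CPM elsewhere. Its SD between replicates was 1.54, the highest of the 59 genes. NTN4 was at 94.4 to 187 CPM in those 3 replicates and 63.1 to 89.7 CPM in the others. The same 3 replicates had the highest sums of endothelial markers on each surface, 328 to 387 CPM on gel and 438 to 699 on plastic. Elsewhere the sums were 181 to 237 CPM on gel and 234 to 328 on plastic. The part of those markers in these levels was not tested.

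**Figure D4:**
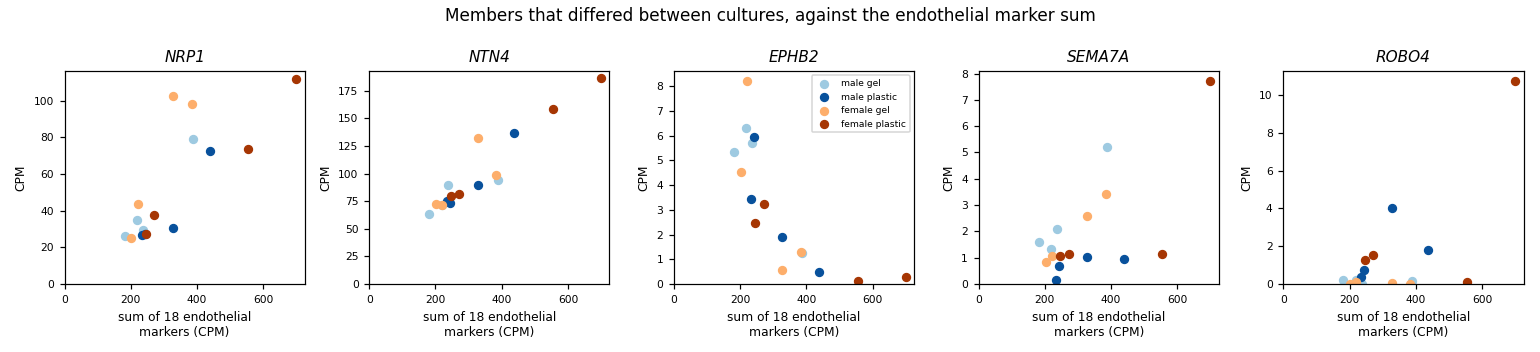
CPM of NRP1, NTN4, EPHB2, SEMA7A and ROBO4 (y axes) against the summed CPM of 18 endothelial markers (x axis), 1 point per library, coloured by group. Within each surface, the libraries of male 4, female 1 and female 4 have the highest sums. They have 72.8 to 112 CPM of NRP1 and 0.127 to 1.3 CPM of EPHB2. Male plastic 3 and female gel 1 have equal sums, and male plastic 3 has 30.4 CPM of NRP1 and 1.91 CPM of EPHB2. Female plastic 1 stands alone for SEMA7A and ROBO4.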

How the data were processed

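Polyadenylated RNA of 16 cultures was sequenced. The deposited table holds whole-number counts per gene and library, per the file header. Trimmomatic 0.36, HISAT2 2.1.0, featureCounts and Sscrofa11.1 are named in the submitters' processing notes, and the strand setting is not given in the sources used here. Of 29576 entries, 24 that are named by numbers (0.169% of counts) were left out. Counts of 4 group means were fitted with edgeR 4.0.16 (quasi-likelihood test, TMM factors 0.896 to 1.12, filterByExpr with a minimum count of 10, Benjamini-Hochberg adjustment over 14530 genes, R 4.3.3). Fold changes are log2, and each SE is the absolute log2 change divided by the square root of the F statistic of its quasi-likelihood test. The procedure was tested on simulated data.

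Samples were grouped by the labelled sex and surface. Same-numbered gel and plastic libraries of a sex deviated together (r 0.126 to 0.489 over 8 pairs, 16 of 16 libraries closest to their own number), so the numbers were taken as pairing, from the data and not the labels. The labels call the replicates biological. Alternatives were size factors of DESeq2 1.42.0, DESeq2 itself, limma-voom (limma 3.58.1), other filters, the block, only the compared libraries, and each library left out.

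The genes and lists were chosen with earlier results of these data known. Values per library were given for genes called for the surface in at least 1 sex with at least 5 CPM in a group, at most 4 per family, the further ones by group means. From the partner list up to 4 genes per direction with the smallest adjusted p in male cells were named. Other genes printed with values (NRP1, EPHA4, EPHB2, SEMA7A, ROBO2, ROBO4, the netrins and the like) were chosen after their values were seen. Gene positions are RefSeq's for Sscrofa11.1. All 72 symbols matched.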

Additional observations from a re-analysis of the deposited data

Results flagged for a closer look

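In 19 of 236 groups of 4 libraries (59 genes in 4 groups), 1 library lay apart from the other 3, with a gap to its nearest neighbour that exceeded Dixon's 95% critical value as a share of the group's range. That is 8.05% of groups, where chance gives about 5%. Female plastic 1 accounted for 5 of them, male gel 2 and female gel 1 for 3 each.

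In female plastic 1, SEMA7A stood at 7.73 CPM above 1.06 to 1.14 in the other 3 libraries, ROBO4 at 10.7 above 0.0844 to 1.54, and EPHA2 at 49.3 above 20.4 to 25.1. In the same library SEMA3D stood at 88.6 CPM below 167 to 174, and EPHA1 at 0.444 below 0.748 to 0.802. In female gel 1, SEMA3G was at 6.85 CPM above 2.99 to 3.62, NTN5 at 1.19 above 0.441 to 0.551, and PLXNB1 at 57.9 below 67.6 to 69.6.

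In male gel 2, SEMA3A was at 30.7 CPM above 15.5 to 16.4, PLXNB1 at 40.8 below 65.1 to 67.6, and SEMA4C at 12 below 28.9 to 31.4. NRP1 was high in both libraries of male 4, at 79.0 CPM on gel above 26 to 34.8 and at 72.8 CPM on plastic above 26.7 to 30.4. SEMA5B on male gel 4 was at 0.628 CPM above 0.112 to 0.14, and PLXNB2 on male plastic 4 at 524 above 474 to 478. Male plastic 1 had SEMA3D at 149 CPM above 129 to 132 and SEMA4B at 16.3 below 22.6 to 23.5. EPHA1 on female gel 4 was at 1.09 CPM above 0.475 to 0.551, and UNC50 on female plastic 4 at 16.3 below 21.2 to 21.6.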

How the results depend on the processing

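Over 25 alternative settings no called surface change reversed, while 13 uncalled changes in male and 18 in female cells, among them that of NRP1 in both, turned sign in some setting. Of the 19 genes called in male cells 11 were called in every setting, and of the 18 in female cells 11. Called counts in male cells, each with the share of all genes tested in that setting, were 19 (25.5%) with RLE size factors, 20 (29%) with DESeq2, 17 (24.5%) with limma-voom, 19 (14.9%) with no filter and 18 (21.6%) in a fit of the male libraries alone. In female cells they were 17 (23.8%), 19 (27.1%), 16 (24.1%), 16 (14%) and 18 (23.9%). Leaving out 1 library at a time gave 14 to 21 calls in male cells (14 to 20 among the 59 genes, and 19.4% to 26.9% of all) and 14 to 20 in female cells (14 to 19 among the 59, and 18.9% to 30.2% of all). With the replicate block, the paired fit, 22 genes (29.7% of all) were called in male cells, 19 shared with the unpaired fit, and 21 (27.6%) in female cells, 17 shared, and beyond the genes named with a blocked value it changed no other call. No paired analysis was possible for the comparison of the sexes because each replicate belongs to 1 sex. Genes with few reads, such as EFNA4, ROBO2 and ROBO4, are limited by depth.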
